A study of Mus musculus with 12 samples.

Results

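Horizontal cell genes were followed as a set of 7 genes, Lhx1, Onecut1, Onecut2, Prox1, Calb1, Gja10 and Tfap2a, taken by gene symbol from a table of 32867 genes without use of their values. All 7 were found, and all 7 passed the filter on low counts in every comparison. The samples were whole retinas, 3 in each of 4 groups. C3H wild-type mice, with normal alleles of Pde6b and Prph2, gave 1 sample each labelled postnatal day 13, 23 and 29. Pde6b rd1 mice on the C3H background, with a retroviral insertion in the rod phosphodiesterase gene Pde6b, were sampled at day 13. Pde6b rd10 mice, with a point mutation in the same gene on the C57Bl6/J background, were sampled at day 23, and Prph rd2 mice, with a mutation in Prph2 that leaves photoreceptors without outer segments, at day 29. For Prph rd2 the labels give a C57BL6/J strain and the methods a C3H background. The days of the 3 models were chosen by the study as their peaks of photoreceptor cell death. Mice were used irrespective of sex, and no label says whether the 3 samples of a group came from separate animals, so that p-values measure only the spread between these samples.

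Horizontal cells are inhibitory interneurons of the outer retina. They receive glutamate from rod and cone terminals, feed back onto those terminals, and are joined to each other by gap junctions. In development, the homeobox factors Onecut1, Onecut2, Prox1 and Lhx1 and the AP-2 factor Tfap2a mark cells on the way to this fate, while the calcium-binding protein calbindin, encoded by Calb1, and connexin57, encoded by Gja10, mark the mature cell. In whole retina most of these genes are not exclusive to horizontal cells. Prox1 is also made by bipolar and amacrine cells, Tfap2a by amacrine cells, Calb1 by amacrine and ganglion cells, and the Onecut genes by ganglion cells. In RNA of the whole tissue, fewer cells of a type and less RNA per cell cannot be told apart.

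Libraries held 17049495 to 24755890 gene counts, and the biological coefficient of variation among replicates ran from 3.11% in C3H to 7.39% in Prph rd2. Counts of Pde6b were 4937 to 6253 in Pde6b rd1 and 24335 to 29129 in C3H, and those of Prph2 30656 to 34634 in Prph rd2 and 52768 to 65756 in C3H. The X-linked transcript Xist had 8 to 10 counts in C3H and 13428 to 83716 in the 9 model samples, and the Y-linked gene Ddx3y had 0 counts in Pde6b rd1 and at least 757 in each other sample. Each Pde6b rd10 sample (Xist 13428 to 18861, Ddx3y 1056 to 1696 counts) and each Prph rd2 sample (37187 to 47452 and 757 to 907) thus held both transcripts. Whether these samples pooled mice of both sexes is not given in the sources used here. Sex-linked levels therefore moved with the groups, and their part in the results was not tested. Summed levels of 11 rod markers were 27480 to 28180 CPM (counts scaled to equal library size) in C3H, 14510 to 14760 in Pde6b rd1, 23650 to 24700 in Pde6b rd10 and 18210 to 19440 in Prph rd2, while 8 lens markers summed to at most 6.46 CPM in any sample.

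Onecut1 and Prox1 are the members called lower in Pde6b rd10 than in Pde6b rd1, as given below, and the 250 bases before the start of each gene are shown as RefSeq gives them in the build GRCm38.p6, in lower case with each CpG in capitals. Onecut1 stands for chr9:74861671-74861920 on the plus strand, and Prox1 for chr1:190170828-190171077 on the minus strand, before the more upstream of 2 RefSeq starts.
Onecut1: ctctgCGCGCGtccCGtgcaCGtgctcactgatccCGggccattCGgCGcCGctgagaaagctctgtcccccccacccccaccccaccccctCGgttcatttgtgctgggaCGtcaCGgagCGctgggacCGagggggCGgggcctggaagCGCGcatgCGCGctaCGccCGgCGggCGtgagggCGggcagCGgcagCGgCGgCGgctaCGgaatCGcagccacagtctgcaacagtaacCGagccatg
Prox1: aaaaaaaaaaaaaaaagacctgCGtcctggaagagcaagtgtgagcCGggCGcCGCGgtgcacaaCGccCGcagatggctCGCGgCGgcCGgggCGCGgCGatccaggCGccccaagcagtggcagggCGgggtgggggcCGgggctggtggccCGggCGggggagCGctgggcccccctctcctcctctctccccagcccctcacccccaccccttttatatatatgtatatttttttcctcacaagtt
The Onecut1 stretch is 71.6% G and C with 31 CpG, and the Prox1 stretch 64.8% with 20, beside medians of 52.4% and 6 over 32851 mouse promoters of the same length. The stretch before the other RefSeq start of Prox1, which lies inside the annotated gene and is not shown, is 56% G and C with 11 CpG and holds none of the motifs named next. The letters ATCGAT and ATCAAT, bound by ONECUT factors, TAATTA, bound by homeodomain factors, and GCCNNNGGC, bound by AP-2 factors, were searched on both strands, and none of them is in either stretch. They are present in 0.728%, 6.72%, 4.84% and 13.7% of all promoters, in that order. The letters TATAAA, which 12.4% of promoters hold, occur once in the Prox1 stretch, on the strand opposite to the gene, with its first base at position -34 from the start. Of the members, 5 had an entry in this table.

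Onecut2, which acts beside Onecut1 in the genesis of horizontal cells, was higher in Pde6b rd1 than in C3H. Its FPKM values (counts divided by gene length and by the reads on genes) were 1.75, 2.00 and 1.65 in the C3H samples of days 13, 23 and 29, and 3.31, 3.59 and 3.86 in Pde6b rd1. Pde6b rd10 gave 2.75, 2.41 and 2.91 and Prph rd2 2.21, 1.77 and 2.33. Every Pde6b rd1 sample lay above every Pde6b rd10 sample, and every Pde6b rd10 sample above all samples of the other groups, while Prph rd2 and C3H overlapped. Onecut2 was 1.89-fold higher in Pde6b rd1 than in C3H (log2 fold change 0.92, standard error 0.07, edgeR quasi-likelihood test, Benjamini-Hochberg adjusted p = 1.22e-10). In Pde6b rd10 the log2 fold change was 0.52 (standard error 0.08, edgeR adjusted p = 8.80e-06), a 1.44-fold difference that stayed below the 1.5-fold needed for a call. With counts scaled to the summed inner neuron lists it was 0.64, and without C3H replicate 2 or Pde6b rd10 replicate 2 it was 0.61 and 0.59, all past that limit. In Prph rd2 it was 0.19 (standard error 0.10, edgeR adjusted p = 0.275). Onecut2 spans 64340020 to 64400987 on the plus strand of chromosome 18 in GRCm38.

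Its paralog Onecut1 was measured at a lower level, with 54 to 120 counts per sample. The FPKM values were 0.857, 0.870 and 1.08 in C3H at days 13, 23 and 29, and 1.34, 1.23 and 1.24 in Pde6b rd1. In Pde6b rd10 they were 0.845, 0.701 and 0.766, and in Prph rd2 1.04, 0.853 and 0.822. The Pde6b rd1 samples lay above all others, while the remaining 3 groups overlapped their neighbours. The log2 fold change over C3H was 0.37 for Pde6b rd1 (standard error 0.14, edgeR adjusted p = 0.0397), -0.32 in Pde6b rd10 (standard error 0.16, adjusted p = 0.0955) and -0.08 in Prph rd2, and no difference reached 1.5-fold. Onecut1 spans 74861921 to 74891781 on the plus strand of chromosome 9 and overlaps the noncoding gene Gm20649 on the same strand. How the counting treated reads in the overlap is not given in the sources used here.

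Prox1, a homeobox factor needed for horizontal cells to form, was the most abundant member per length. It had 52.6, 51.6 and 50.8 FPKM in C3H at days 13, 23 and 29, and 70.3, 68.6 and 71.8 FPKM in Pde6b rd1. The Pde6b rd10 samples had 43.9, 41.5 and 45.1 FPKM and the Prph rd2 samples 52.3, 48.1 and 52.7. All Pde6b rd1 samples were above and all Pde6b rd10 samples below the C3H and Prph rd2 samples, which overlapped. Over C3H, the log2 fold change was 0.37 in Pde6b rd1 (standard error 0.03, edgeR quasi-likelihood test, adjusted p = 2.58e-10) and -0.30 in Pde6b rd10 (standard error 0.04, adjusted p = 6.05e-07). These differences were large beside the spread within groups, yet neither reached 1.5-fold. In Prph rd2 the estimate was -0.05. Prox1 lies on the minus strand of chromosome 1 from 190118035 to 190170714. Its antisense neighbour Prox1os, which starts inside Prox1 on the plus strand, had 83 to 136 counts per sample and log2 fold changes of 0.08 in Pde6b rd1, -0.33 in Pde6b rd10 (edgeR adjusted p = 0.0437) and -0.12 in Prph rd2. The libraries were directional, but the strand setting of the counting is not given in the sources used here, so that reads of both genes may not be told apart.

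A circular RNA of Prox1 was the only one with a member as host gene. It spans chr1:190146952-190162313 on the minus strand of GRCm38, and both ends match exon ends of 3 annotated Prox1 transcripts. The 30 bases across its back-splice junction are shown because reads over this join are what was counted, with the donor side in lower case and the acceptor side in capitals.
Prox1 circRNA junction: gcaaatgactttgagGGTCCCGGGATTCTT
The bases GT follow the donor exon and AG precedes the acceptor exon in the genome, as at spliced exons. Junction reads numbered 55, 73 and 63 in C3H, 65, 38 and 42 in Pde6b rd1, 61, 57 and 67 in Pde6b rd10, and 50, 67 and 76 in Prph rd2. The 4 groups overlapped. The log2 fold change over C3H was -0.03 in Pde6b rd1 (standard error 0.19, edgeR adjusted p over all circRNAs tested 0.999), -0.27 in Pde6b rd10 (standard error 0.18, adjusted p = 0.606) and -0.07 in Prph rd2 (standard error 0.20, adjusted p = 0.997). Neither edgeR nor DESeq2 called it at 2-fold in any of them, where 6.37%, 11.8% and 3.44% of all tested circRNAs were called in the same order. Per 1000 counts of the gene, the junction had 6.28 to 7.46 reads in C3H and 3.62 to 5.05 in Pde6b rd1, groups that did not overlap, beside 6.69 to 8.85 in Pde6b rd10 and 4.82 to 7.09 in Prph rd2. As a share of all junction reads of a library, it was 0.319% to 0.433% in C3H and 0.370% to 0.434% in Pde6b rd1, which overlapped. Pde6b rd10 had 0.244% to 0.320% and Prph rd2 0.274% to 0.350%. Libraries held 14538 to 22036 junction reads in C3H and 9819 to 14966 in Pde6b rd1. Neither the ratio nor the share was tested.

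Lhx1, a LIM homeobox factor that places horizontal cells in their layer, was called in no comparison. It had 2.15, 2.34 and 2.21 FPKM in C3H at days 13, 23 and 29, and 2.52, 1.94 and 2.43 in Pde6b rd1. Pde6b rd10 had 2.60, 2.05 and 2.16 FPKM and Prph rd2 1.89, 1.82 and 2.05. The Pde6b groups overlapped with C3H, while all Prph rd2 samples were below all C3H samples. The log2 fold change over C3H was -0.02 in Pde6b rd1 (standard error 0.11, edgeR adjusted p = 0.876), -0.02 in Pde6b rd10 (adjusted p = 0.870) and -0.25 in Prph rd2 (standard error 0.10, adjusted p = 0.143). For Pde6b rd1 and Pde6b rd10 the sign of this small estimate turned with the scaling. Lhx1 lies on the minus strand of chromosome 11 from 84518284 to 84525535, and its neighbour Lhx1os had 3 to 26 counts per sample and was called in no comparison.

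Tfap2a, shared by horizontal and amacrine cells, moved little. Its FPKM values were 13.2, 12.6 and 13.5 in C3H at days 13, 23 and 29, 15.7, 14.9 and 15.3 in Pde6b rd1, 12.2, 11.1 and 12.7 in Pde6b rd10, and 14.3, 13.3 and 13.9 in Prph rd2. In FPKM, Pde6b rd1 samples lay above all others, and the other groups overlapped their neighbours. FPKM leaves out the TMM factors, by which edgeR scales libraries for the fold changes. Pde6b rd1 replicate 2 had 73.0 CPM and a TMM factor of 1.0412, and Prph rd2 replicate 1 had 70.3 CPM and 0.9881. Divided by these factors, Pde6b rd1 and Prph rd2 overlap. The log2 fold change over C3H was 0.15 in Pde6b rd1 (standard error 0.04, edgeR adjusted p = 0.00686), -0.18 in Pde6b rd10 (standard error 0.05, adjusted p = 0.00886) and 0.05 in Prph rd2, whose sign turned with the inner neuron scaling. The gene spans 40715302 to 40738376 on the minus strand of chromosome 13, with 3 noncoding genes on the other strand.

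Calb1, whose protein calbindin buffers calcium, was lower in Pde6b rd1 than in every other group. It had 15.5, 16.1 and 15.4 FPKM in C3H at days 13, 23 and 29, and 9.86, 9.31 and 9.67 in Pde6b rd1. Pde6b rd10 had 19.1, 18.4 and 19.1 FPKM and Prph rd2 17.4, 20.0 and 20.1. All C3H samples lay above Pde6b rd1 and below both other models, which overlapped each other. Calb1 stood at 0.583 of its C3H level in Pde6b rd1 (log2 fold change -0.78, standard error 0.05, edgeR quasi-likelihood test, adjusted p = 1.15e-12). It was higher by a log2 fold change of 0.21 in Pde6b rd10 (standard error 0.04, edgeR adjusted p = 5.17e-04) and of 0.26 in Prph rd2 (standard error 0.06, edgeR adjusted p = 0.0140), both below 1.5-fold. Calb1 spans 15881264 to 15908064 on the plus strand of chromosome 4.

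Gja10, the gap junction channel of horizontal cell dendrites and axon terminals, had the fewest counts of all members, 33 to 109 per sample. The FPKM values were 1.33, 1.83 and 1.43 in C3H at days 13, 23 and 29, and 1.27, 0.898 and 0.915 in Pde6b rd1. They were 2.04, 2.13 and 1.72 in Pde6b rd10 and 1.51, 1.41 and 1.84 in Prph rd2. All Pde6b rd1 samples lay below all others, but the nearest C3H sample was that of the same day, 13. The level in Pde6b rd1 was 0.641 of that in C3H (log2 fold change -0.64, standard error 0.20, edgeR adjusted p = 0.0108). This call was lost without C3H replicate 2 (log2 fold change -0.49), without Pde6b rd1 replicate 2 (-0.55) or 3 (-0.56), and against the C3H sample of day 13 alone (-0.44, edgeR adjusted p = 0.291). In Pde6b rd10 the estimate was 0.29 (standard error 0.16, edgeR adjusted p = 0.134) and in Prph rd2 0.01. Gja10 lies on the minus strand of chromosome 4 from 32596960 to 32602760.

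**Figure D1:**
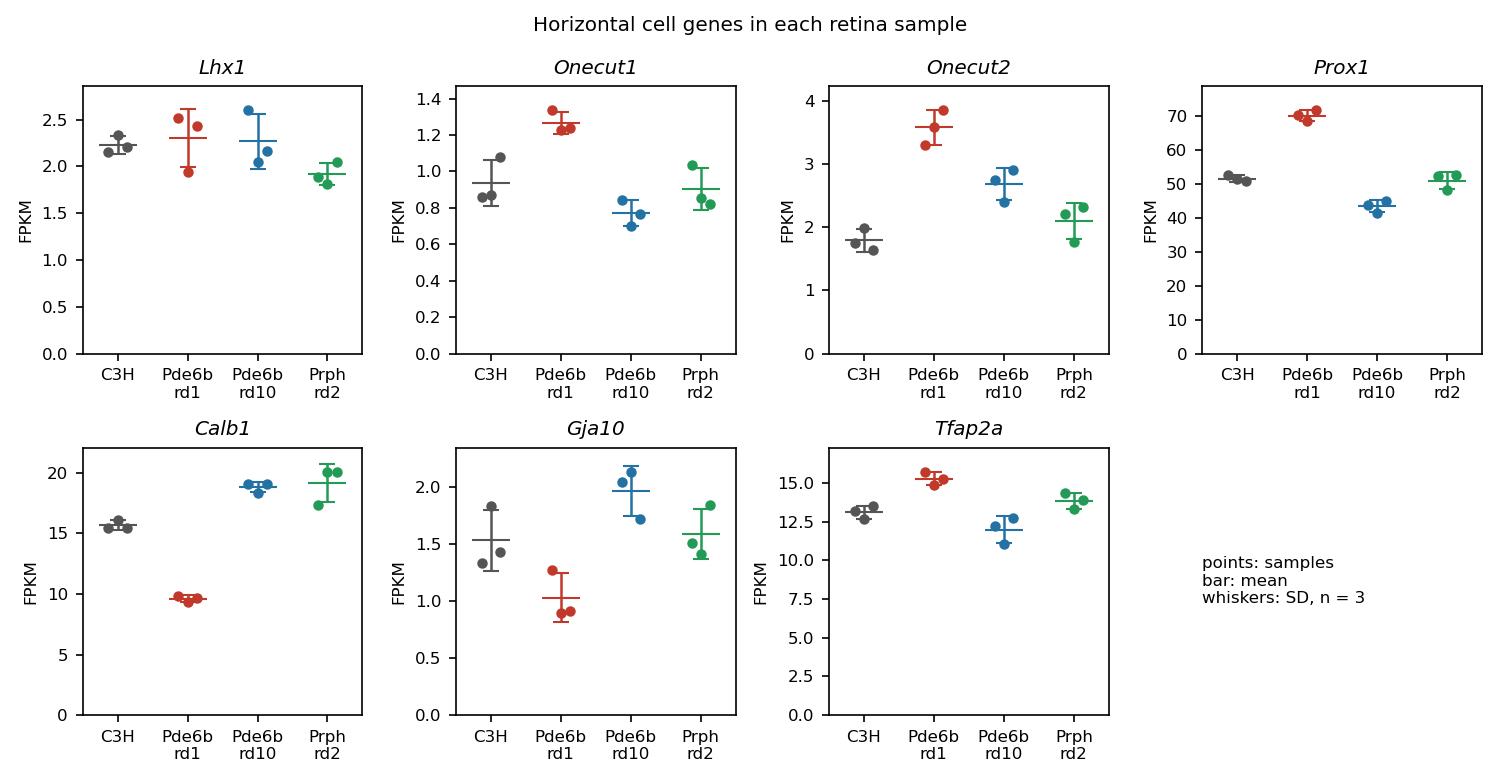
FPKM of the 7 horizontal cell genes in each retina sample, 1 panel a gene, with the 4 groups on the horizontal axis, points for samples, a bar for the mean and whiskers for the SD (n = 3). Onecut2, Onecut1, Prox1 and Tfap2a are highest in Pde6b rd1, where Calb1 and Gja10 are lowest, and the Lhx1 panel shows overlapping Pde6b rd1, Pde6b rd10 and C3H samples.

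Against C3H, 1 of the 7 members was called higher in Pde6b rd1 (Onecut2) and 2 lower (Calb1 and Gja10), where the calls over all 18310 tested genes were 8.98% higher and 6.03% lower. Calls required both 1.5-fold and an unadjusted p under 0.05. By p alone, 6 of the 7 had an unadjusted p under 0.05 in Pde6b rd1. The same number had an adjusted p under 0.05, as did 7906 of all 18310 tested genes. With 7 members, these counts were not read as a departure from all genes. In Pde6b rd10, 0 members were called by edgeR and 0 by DESeq2, where 15.9% of all genes were called higher and 8.08% lower. Without the fold threshold, 4 of the 7 had an unadjusted p under 0.05, and the same number had an adjusted p under 0.05, as did 10115 of all 18704 tested genes. In Prph rd2 both tools also called 0 members, where 2.68% of all genes were called higher and 1.89% lower. Here 2 members had an unadjusted p under 0.05 and 1 an adjusted p under 0.05, as did 1802 of all 18581 genes. Over the 7 members, the median log2 fold change was 0.15 for Pde6b rd1, -0.02 for Pde6b rd10 and 0.01 for Prph rd2, beside -0.0109, -0.0025 and -0.0012 over all genes tested.

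Levels in the same 3 C3H samples entered each of these comparisons, so the Pde6b models were also compared with each other directly, by a contrast in 1 fit of all 12 samples. In Pde6b rd10, Calb1 exceeded its Pde6b rd1 level by a log2 fold change of 1.01 (standard error 0.06, edgeR adjusted p = 4.46e-12), and Gja10 by 0.96 (standard error 0.19, edgeR adjusted p = 1.72e-04). Onecut1 was lower by -0.67 (standard error 0.15, edgeR adjusted p = 7.16e-04) and Prox1 by -0.65 (standard error 0.04, edgeR adjusted p = 8.17e-11). These 2 higher and 2 lower calls among 7 members stand beside 17.6% of 19616 genes called higher and 11.2% called lower. Onecut2 and Tfap2a were also lower in Pde6b rd10, by -0.37 (edgeR adjusted p = 0.00214) and -0.31 (edgeR adjusted p = 8.08e-05), below 1.5-fold, and Lhx1 differed by 0.03. Calb1 and Gja10 thus differed in the opposite direction to Onecut1, Onecut2, Prox1 and Tfap2a. Both models also differ in day, strain and sex-linked levels, and these cannot be told apart from the mutation.

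**Figure D2:**
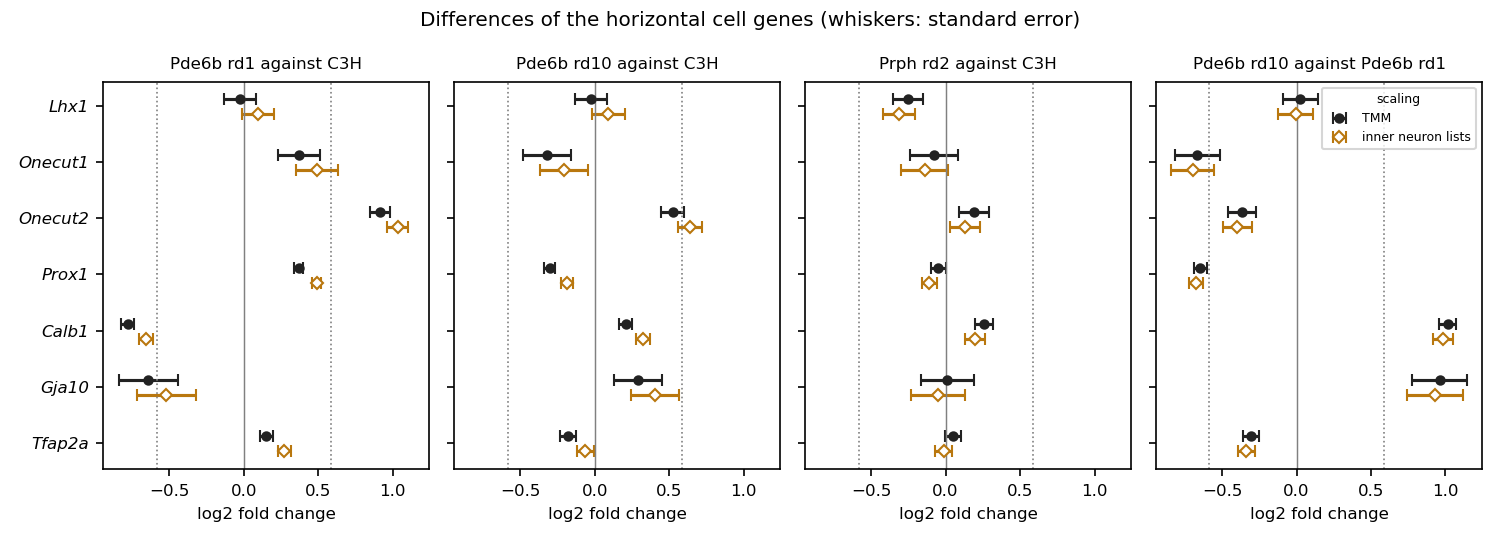
Log2 fold change of each member in the 4 comparisons, with whiskers for the standard error, under edgeR's TMM scaling (filled circles) and under a scaling to the summed inner neuron lists (open diamonds), with dotted lines at 1.5-fold. Onecut2 sits right of the upper line and Calb1 left of the lower line in Pde6b rd1 under both scalings, whereas Gja10 crosses back over the line under the second.

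The ratio of 2 members within a library does not depend on the scaling of libraries, and it was taken after the values had been seen, without a test. Calb1 over Prox1, from FPKM, was 0.294, 0.313 and 0.304 in C3H, 0.140, 0.136 and 0.135 in Pde6b rd1, 0.434, 0.443 and 0.423 in Pde6b rd10, and 0.332, 0.417 and 0.381 in Prph rd2. Pde6b rd1 was lowest and Pde6b rd10 highest, and no groups overlapped. The Gja10 to Onecut1 ratio was 1.55, 2.11 and 1.32 in C3H, 0.954, 0.732 and 0.740 in Pde6b rd1, 2.42, 3.04 and 2.24 in Pde6b rd10, and 1.45, 1.66 and 2.23 in Prph rd2, which overlapped C3H alone. For Onecut2 over Onecut1, it was 1.53 to 2.30 in C3H, 2.48 to 3.12 in Pde6b rd1, 3.26 to 3.80 in Pde6b rd10 and 2.08 to 2.83 in Prph rd2, which overlapped both C3H and Pde6b rd1. Calb1 over Lhx1 lay between 6.90 and 7.19 in C3H, 3.91 and 4.79 in Pde6b rd1, 7.33 and 8.99 in Pde6b rd10, and 9.19 and 11.04 in Prph rd2. Here Prph rd2 was highest, and no groups overlapped.

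Day could be held fixed only by its label and with 1 C3H sample a model. The C3H samples varied least of all groups despite their different days, and whether the labels separate ages was not tested. Against the C3H sample of day 13, the log2 fold change in Pde6b rd1 was 0.95 for Onecut2 (edgeR adjusted p = 2.07e-04), -0.77 for Calb1 (edgeR adjusted p = 5.63e-06), 0.33 for Prox1 (edgeR adjusted p = 0.00215) and 0.48 for Onecut1 (edgeR adjusted p = 0.129). Against that of day 23, Pde6b rd10 had 0.38 for Onecut2 (edgeR adjusted p = 0.0442), -0.29 for Prox1, 0.17 for Calb1 (edgeR adjusted p = 0.112) and 0.05 for Gja10. Against that of day 29, Prph rd2 had 0.32 for Onecut2 (edgeR adjusted p = 0.267) and 0.28 for Calb1 (edgeR adjusted p = 0.0696). In these fits the lone C3H sample was taken to vary as the model samples did.

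**Figure D3:**
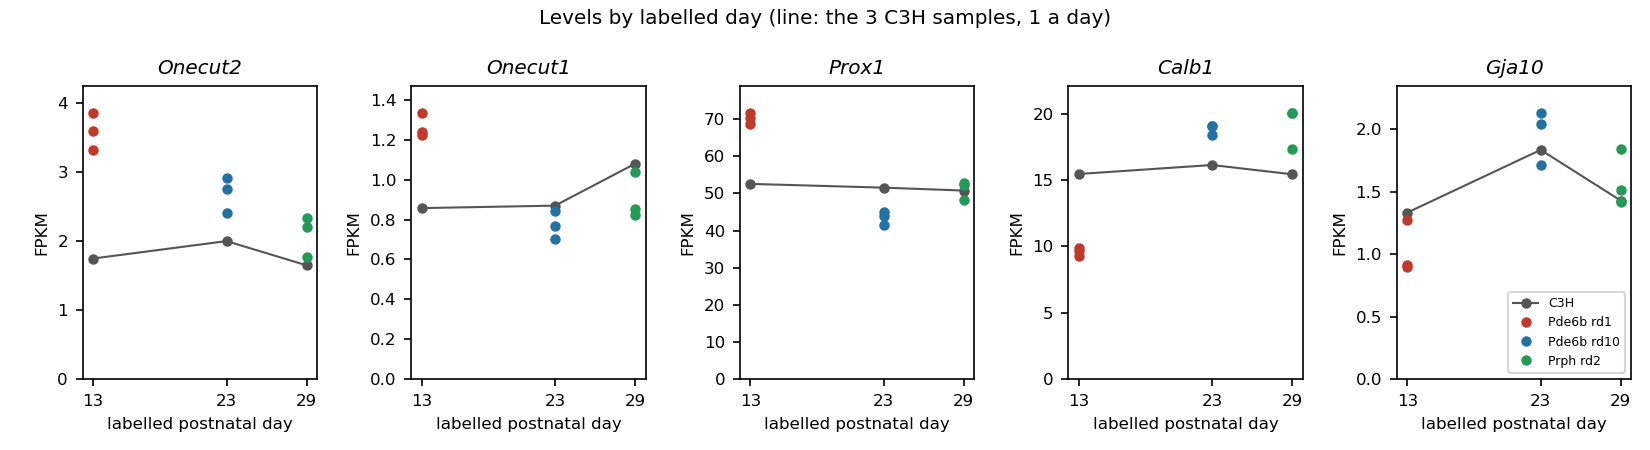
FPKM of 5 members against labelled postnatal day, with the 3 C3H samples joined by a line and the samples of each model as points at their own day. At day 13 the Pde6b rd1 points of Onecut2 and Prox1 lie above the C3H sample and those of Calb1 below it, while 1 Gja10 point lies next to it.

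Since the summed rod markers differed between the groups, the members were also set against inner neurons. Scaled to the summed lists of bipolar, amacrine and ganglion cell markers in place of all genes, the median gene moved by 0.12 in Pde6b rd1 and in Pde6b rd10 and by -0.06 in Prph rd2, on the log2 scale. On this scale Pde6b rd1 differed from C3H by 1.04 for Onecut2, 0.49 for Prox1, 0.49 for Onecut1, 0.27 for Tfap2a, -0.66 for Calb1 and -0.52 for Gja10. Pde6b rd10 had 0.64 for Onecut2, 0.41 for Gja10, 0.32 for Calb1 and -0.19 for Prox1. No called member changed direction, Gja10 in Pde6b rd1 fell short of 1.5-fold, and Onecut2 in Pde6b rd10 passed it. The inner neuron scaling holds the summed lists fixed, so any difference in them between groups moves every gene alike. Whether they were level between the groups was not tested, and their medians in the Pde6b models are given below.

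The other horizontal cell genes were 6 transcription factors and 14 genes of junctions, transmitter, neurofilaments and cell spacing. Foxn4 and Ptf1a, which start the fate in the embryo, had too few counts to be tested. The remaining factors, Onecut3, Tfap2b, Sall3 and Rorb, had 0 calls of 4 by edgeR in each model. At an unadjusted p under 0.05 alone, Pde6b rd1 had 2, Pde6b rd10 2 and Prph rd2 1 of them, and these numbers were the same at an adjusted p under 0.05, which 7906 of 18310, 10115 of 18704 and 1802 of 18581 tested genes had in these models. Rorb, a nuclear receptor used by several retinal cell types, had 86.4 to 92.9 FPKM in C3H, 105 to 109 in Pde6b rd1 and 59.3 to 66.5 in Pde6b rd10, without overlap. Prph rd2 had 62.1 to 73.6 FPKM, which overlapped Pde6b rd10 and lay below C3H (log2 fold change -0.405, standard error 0.06, edgeR adjusted p = 5.08e-04). Between the Pde6b models Rorb was lower in Pde6b rd10 by a log2 fold change of -0.71 (standard error 0.05, edgeR adjusted p = 6.38e-10).

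Among the 14 function genes, Nefh, the heavy neurofilament subunit, was the only one called in Pde6b rd1. Over all genes tested there, 8.98% were called higher and 6.03% lower. Without the fold threshold, 12 of the 14 had an unadjusted p under 0.05. The same number had an adjusted p under 0.05, as did 7906 of all 18310 tested genes. Nefh had 21.2, 21.6 and 22.8 FPKM in C3H and 13.4, 12.4 and 12.4 in Pde6b rd1, without overlap. Its log2 fold change was -0.85 (standard error 0.05, edgeR adjusted p = 3.99e-13). Estimates of this list went both ways in Pde6b rd1, with a median of -0.30. Positive ones below 1.5-fold included Panx1 (0.58), Plxna4 (0.43), Sema6a (0.40) and Megf10 (0.23), each with an edgeR adjusted p of at most 8.14e-05. Genes of the inhibitory transmitter GABA had negative estimates below 1.5-fold. These were -0.53 for Gad1 (edgeR adjusted p = 1.38e-12) and -0.42 for Gad2 (edgeR adjusted p = 2.06e-07), which make GABA. Slc32a1, which loads it into vesicles, had -0.38 (edgeR adjusted p = 4.28e-07). Amacrine cells make GABA too, and their markers summed to 1162 to 1179 CPM in Pde6b rd1 and 1247 in C3H. Markers of ganglion cells, which hold neurofilaments too, summed to 381 to 390 CPM in Pde6b rd1 and 462 to 478 in C3H. Unlike the fold changes, these sums leave out the TMM factors, 1.0291 to 1.0412 in Pde6b rd1 and 0.9611 to 0.974 in C3H. Divided by them, the Pde6b rd1 sums would lie further below C3H. The part of amacrine and ganglion cells in the Nefh and GABA values was not tested.

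In Pde6b rd10, 1 function gene was called higher and 1 lower of 13 tested, where 15.9% of all genes were called higher and 8.08% lower. Without the fold threshold, 8 had an unadjusted p under 0.05. An adjusted p under 0.05 was reached by 7, as by 10115 of all 18704 tested genes. The gene called lower was Panx1, a channel at horizontal cell dendrite tips. Panx1 had 5.61, 5.38 and 5.54 FPKM in C3H, 2.91, 2.75 and 2.75 in Pde6b rd10 and 8.36, 8.78 and 8.79 in Pde6b rd1. The Panx1 log2 fold change was -1.02 in Pde6b rd10 (standard error 0.07, edgeR adjusted p = 4.12e-11) and 0.58 in Pde6b rd1, just below 1.5-fold. In Prph rd2, 0 of 13 tested function genes were called by edgeR, where 2.68% of all genes were called higher and 1.89% lower. At an unadjusted p under 0.05 there were 7, and at an adjusted p under 0.05 there were 5, as for 1802 of all 18581 genes. DESeq2 called 0 of both lists.

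Pde6b rd10 differed from Pde6b rd1 in 4 function genes called higher and 4 called lower of 14, beside the 17.6% and 11.2% of all genes given above for this contrast. Among the higher ones were Nefh (0.91), Gad1 (0.77) and C1ql1 (0.66), and among the lower ones Panx1 (-1.57) and the guidance pair Sema6a (-0.72) and Plxna4 (-0.62), all as log2 fold changes.

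**Figure D4:**
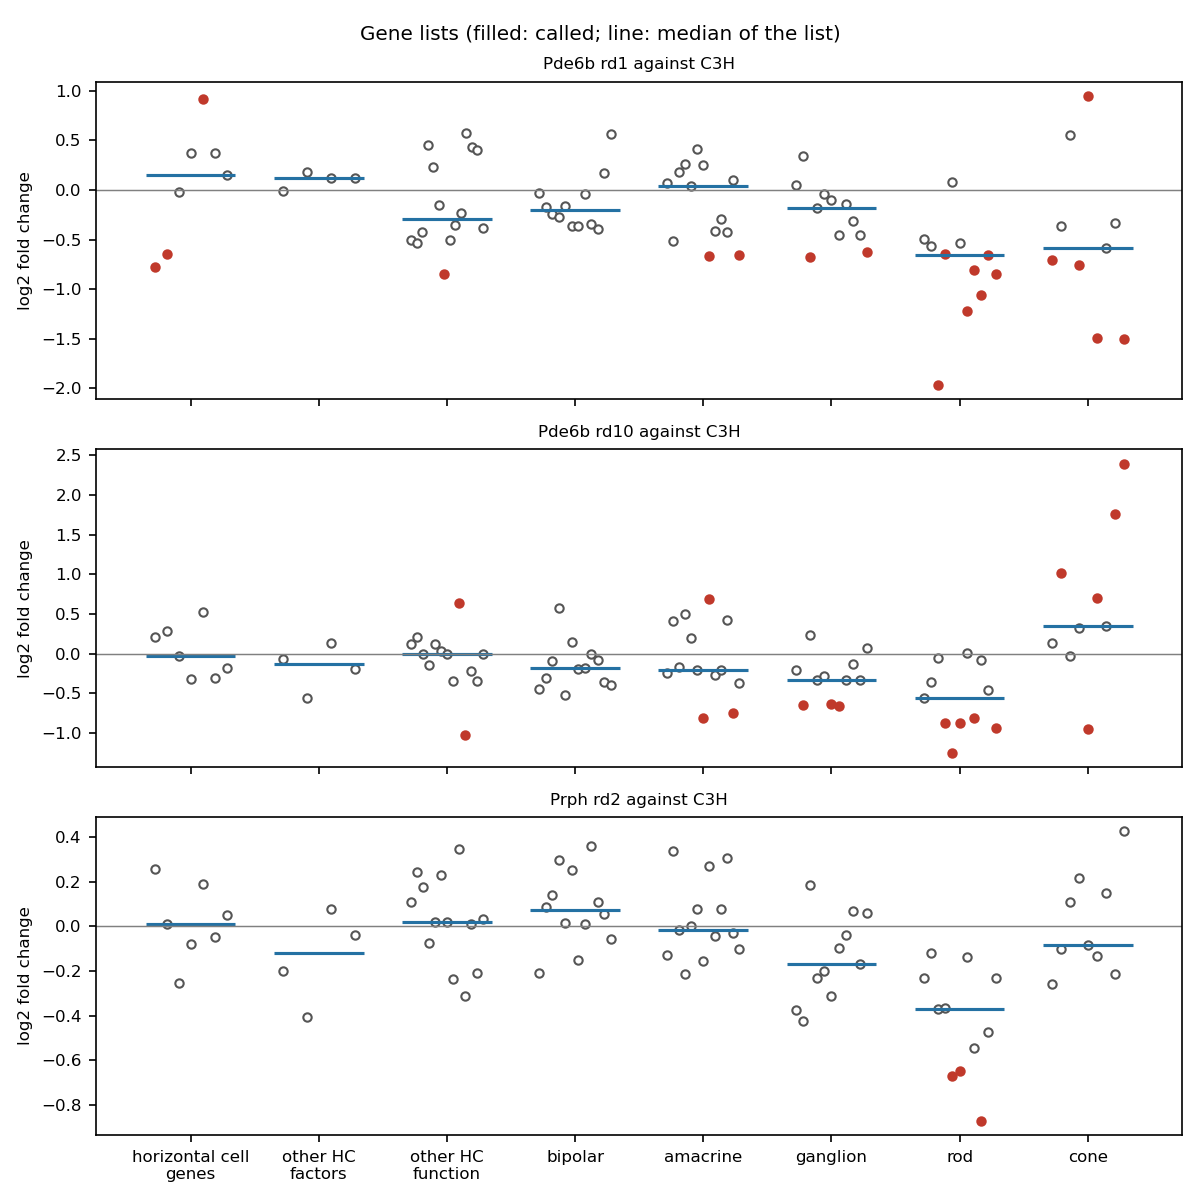
Log2 fold change over C3H of each tested gene in 8 lists, for the 3 models, with filled points for called genes, open points for the others and a line at the median of the list. HC stands for horizontal cell. Horizontal cell genes spread to both sides of 0 in Pde6b rd1, with a median of 0.15, while the median of the rod list lies at -0.65.

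Members could be set beside lists of other retinal neurons, as a description. In Pde6b rd1 the medians were 0.15 for the 7 members, 0.12 for the other horizontal cell factors, -0.30 for the function genes, -0.21 for bipolar, 0.04 for amacrine and -0.18 for ganglion cell markers. Calls of the bipolar, amacrine and ganglion lists were 0 of 12, 2 of 13 and 2 of 11, all lower. Over all tested genes, 8.98% were called higher and 6.03% lower. In Pde6b rd10 the members' median of -0.02 stood beside -0.18, -0.20 and -0.33 for the same 3 lists. Their calls there were 0 of 12 bipolar markers, 1 higher and 2 lower of 13 amacrine markers, and 3 lower of 11 ganglion cell markers. All tested genes had 15.9% called higher and 8.08% lower in this comparison.

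The genes whose profile over the 12 samples was most like that of a member were found by the root mean square difference of centred log2 CPM values. For Calb1 they were Hpcal4 at 0.062 and the cone transducin gene Gnat2 at 0.066, and for Prox1 Rhobtb3 at 0.041 and Fam126a at 0.044. Nrp2 and Ssbp3 came nearest to Onecut1 (0.098 and 0.102), Gm43679 and Gm49204 to Onecut2 (0.105 and 0.114), and Stox1 and Lrp2bp to Gja10 (0.096 and 0.152). Scaf11 and Nipbl were nearest to Tfap2a (0.045 and 0.047), and Gm11944 and Cat to Lhx1 (0.099 and 0.104). On log2(FPKM + 1) values, 5 of these 14 pairs were again among the nearest, among them Rhobtb3 for Prox1 and both genes for Calb1.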

How the data were processed

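Gene counts, FPKM values and circRNA junction counts of 12 retina samples were used, grouped by the genotype in the labels. The counts are reads that the authors counted per gene with HTSeq 0.11.2 on GRCm38, without normalization, from directional libraries depleted of ribosomal RNA. For FPKM, the authors divided them by gene length and by the reads on genes. Overlaps of gene levels between groups were read from FPKM, which leaves out edgeR's TMM factors. The deposited circRNA counts are reads across back-splice junctions, found by the authors with TopHat2 2.1.1 and CIRCexplorer. Start coordinates of circRNAs were shifted by 1 base to match exons.

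Models were compared with the 3 C3H samples 1 at a time in R 4.3.3 with edgeR 4.0.16 (TMM, its filter on low counts, quasi-likelihood test), and Pde6b rd10 with Pde6b rd1 by a contrast over all 12 samples. Calls took the thresholds of the study, 1.5-fold (2-fold for circRNAs) with an unadjusted p under 0.05. CircRNAs were tested where 3 or more of 6 samples had 2 or more junction reads. Adjusted p-values are Benjamini-Hochberg over all features tested. The members, the gene lists and the tests were chosen with earlier results of these data known. All members were named, with the mutated genes, the called genes of the other horizontal cell lists (at most 4 per list, comparison and direction), antisense genes named after members, circRNAs hosted by members, and the 2 nearest profiles among genes with a mean of at least 1 CPM.

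The settings varied included DESeq2 1.42.0, limma 3.58.1 with FPKM on a log2 scale after adding 1 or 0.1, other scalings, no filter, the adjusted p as threshold, other sample sets, 2 classes of read quality, a replicate block and each replicate left out. The steps were tested on simulated data. Some list genes that the naming rule covers are not reported here. Positions are from GENCODE vM21 and promoters from RefSeq. Reads carry no molecular identifiers, and 3 counts, 0.121 to 0.176 CPM, were taken as the floor. Figures were drawn with Python 3.11.15 and matplotlib 3.10.9.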

Additional observations from a re-analysis of the deposited data

Results flagged for a closer look

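Pde6b rd10 and Pde6b rd1 samples differed in 4 of the 7 members by the direct contrast, given here as log2 fold changes from edgeR's quasi-likelihood test, where 17.6% of all tested genes were called higher and 11.2% lower. Mutation, day, strain and sex-linked levels cannot be told apart in it. The difference was -0.6661 for Onecut1 and -0.6461 for Prox1, and all 3 Pde6b rd10 samples lay below all 3 Pde6b rd1 samples for both genes. It was 1.0144 for Calb1 and 0.9607 for Gja10, with all 3 Pde6b rd10 samples above all 3 Pde6b rd1 samples. For Prox1 and Calb1, the 2 models lay on opposite sides of C3H with no overlap. With limma on log2(FPKM + 1) the values of Onecut1 and Gja10 were -0.36 and 0.55, below 1.5-fold.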

How the results depend on the processing

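For the 7 members, 106 of 119 values under alternatives kept their direction and side of the threshold in Pde6b rd1, 110 of 119 in Pde6b rd10, 113 of 119 in Prph rd2 and 105 of 112 between the Pde6b models. In Pde6b rd1, Onecut2 and Calb1 kept their calls under all 17 alternatives, while Gja10 lost its call under 7, the others beside those named above being limma on log2(FPKM + 1) (-0.32), limma on log2(FPKM + 0.1) (-0.53) and the inner neuron scaling. The number of members called in Pde6b rd10 rose from 0 to 1 with the inner neuron scaling and was 0 to 1 with replicates left out, Onecut2 being the gene. Between the Pde6b models, limma on log2(FPKM + 1) called 2 members in place of 4. Other horizontal cell genes called in Pde6b rd1 numbered 2 in place of 1, 1 higher and 1 lower, under limma on log2(FPKM + 0.1), the inner neuron scaling and no filter, and 1 to 2 with replicates left out, with 2 without Pde6b rd1 replicate 1. In Pde6b rd10 limma on log2(FPKM + 1) called 1 of them in place of 2.

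Over all genes, limma on log2(FPKM + 1) called 1097 in place of 2749 in Pde6b rd1, 2035 in place of 4479 in Pde6b rd10, 166 in place of 850 in Prph rd2 and 2929 in place of 5644 between the Pde6b models. In Prph rd2, no filter gave 1300, the adjusted p 384, and replicates left out 745 to 1435, the latter without Prph rd2 replicate 2, which had 641 higher and 794 lower. The inner neuron scaling moved the share of higher calls from 59.8% to 73.5% in Pde6b rd1 and from 58.6% to 44.0% in Prph rd2.

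Signs turned only for estimates near 0. Lhx1 in Pde6b rd1 was 0.03 under both limma fits (0.0255 and 0.033), 0.0961 with the inner neuron scaling, 0.0169 against the same day, and -0.0933 to 0.0782 with replicates left out. In Pde6b rd10 it was 0.0126, 0.0158 and 0.0919 under the first 3 of these and -0.1396 to 0.0423 with replicates left out, and between the Pde6b models -0.0128, -0.0172, -0.0047 and -0.0898 to 0.0944. In Prph rd2 the inner neuron scaling gave -0.05 for Gja10 and -0.012 for Tfap2a, and with replicates left out Gja10 was -0.112 to 0.1694 and Onecut1 -0.1907 to 0.0366. The Prox1 circRNA was 0.0309 in Pde6b rd1 with 2 junction reads in at least 2 samples, and -0.1363 to 0.0903 there and -0.2261 to 0.0151 in Prph rd2 with replicates left out. The causes were not tested.

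Replicate numbers are shared by the groups, but the mean Pearson's r of same-numbered samples was 0.0862, -0.0341, -0.0226 and 0.111 across genes in the 4 comparisons, and not every pair was over 0.1, so the numbers were not taken as pairs. Each sample correlated best with its own number in 3 of 3 cases only for Pde6b rd1 against C3H. With the replicate block, 3, 0, 0 and 4 members and 2774, 4434, 855 and 5696 genes were called, and no call of a member changed. Values of Gja10 and Onecut1 rest on 33 to 120 counts per sample, and no label separates day from model except through 1 C3H sample a day.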
